A study of Mus musculus with 4 samples.

Results

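The amino acid transporter genes of 7 solute carrier families, Slc1, Slc3, Slc6, Slc7, Slc36, Slc38 and Slc43, were followed in open chromatin of mouse liver after bile duct ligation. Members were all genes with such a symbol that the authors' annotation links to at least 1 promoter or distal ATAC peak on chromosomes 1 to 19, X or Y. The rule used gene symbols alone. It gave 57 genes of the 25458 with an assigned peak, 55 of them in the Mertk knockout library and 54 in the wild-type library. The Slc6 family held 16 members, Slc7 15, Slc38 10, Slc1 7, Slc36 4, Slc43 3 and Slc3 2. RefSeq lists 61 genes with these symbols, and Slc38a5, Slc6a14, Slc6a15 and Slc6a18 had a peak in neither library.

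Amino acids cross cell membranes through these carriers. Slc1 proteins take up glutamate or exchange small neutral amino acids, Slc6 proteins use the sodium and chloride gradients to import neurotransmitters, taurine, betaine, creatine and glycine, and Slc38 proteins move glutamine and other small neutral amino acids with sodium. Most Slc7 proteins are light subunits that reach the membrane only when bound to 1 of the heavy subunits, Slc3a1 or Slc3a2. Slc36 proteins move small amino acids with protons, and Slc43 proteins carry large neutral amino acids or nucleobases without an ion gradient. In the liver they feed urea, glucose, glutathione and bile salt synthesis, and in macrophages they set the supply of arginine, cystine and glutamine.

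The study compared livers of Mertk knockout mice with livers of wild-type mice, both after bile duct ligation, a surgical model of blocked bile flow and fibrosis. Mertk encodes a receptor kinase with which macrophages engulf dying cells. Nuclei from frozen liver were read with the 10x Multiome assay, in which a transposase cuts open DNA (ATAC) and the RNA of the same nuclei is tagged. Each genotype had 1 ATAC library and 1 RNA library, and the labels state neither the number of animals behind a library, nor their age, nor the time after ligation, nor the knockout allele. Because a genotype was read in a single library, no test was possible, and every difference below describes these libraries without a measure of spread between animals.

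The knockout library held 5339 called nuclei with 84.0 M ATAC fragments and gave 106319 peaks. The wild-type library held 5828 nuclei with 40.9 M fragments and gave 72302 peaks. Peaks were called in each library separately and carry a position but no height. They covered 91.3 Mb at a mean width of 859 bp in the knockout library, against 61.8 Mb at 855 bp in the wild-type library. The hepatocyte marker list had 105 peaks in the knockout library and 23 in the wild-type library, in which 5 of its 12 genes (Alb, Cps1, Cyp3a11, Cyp2e1 and Serpina1a) were at 0. In the same list Ttr, with 3 knockout and 4 wild-type peaks, and Ass1, with 5 knockout and 7 wild-type peaks, went the other way. Hepatocyte markers summed to 2.34 to 17.7 kb of peaks per gene in the knockout library and to 0 to 6.14 kb in the wild-type library. For macrophage markers the knockout library had 50 peaks and the wild-type library 65. Here Csf1r (10 knockout and 8 wild-type peaks), Clec4f (5 and 2) and Cd68 (2 and 1) went the other way, and Adgre1 had 10 in each. A larger share of nuclei of a type, more open DNA per nucleus and deeper sequencing cannot be told apart in these lists, and the part of each in the results below was not tested. The knocked-out gene itself had 13 peaks in the knockout library and 10 in the wild-type library, which checks nothing, because the labels do not say which bases were deleted.

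The promoter windows of 7 members are shown because the results turn on them. Each runs from 250 bases before to 50 after a transcription start site, 5′ to 3′ on the gene's strand, from RefSeq's GRCm38.p6, the assembly that mm10 names. Capitals mark matches to any of 7 motifs, searched on both strands: TGATGNAA (the ATF4 amino acid response core), CAAAGTCCA (HNF4A), GTTAATNA (HNF1), TTGCGCAA (C/EBP), TGANTCA (AP-1), AGGAAGTG (ETS) and TGACNNNGC (the NRF2 antioxidant response core). No matches of different motifs overlapped. The windows of Slc3a1, Slc6a13, Slc38a4 and Slc1a2 were overlapped by a peak in the knockout library alone.
Slc3a1 (chr17:85028097-85028396, plus strand): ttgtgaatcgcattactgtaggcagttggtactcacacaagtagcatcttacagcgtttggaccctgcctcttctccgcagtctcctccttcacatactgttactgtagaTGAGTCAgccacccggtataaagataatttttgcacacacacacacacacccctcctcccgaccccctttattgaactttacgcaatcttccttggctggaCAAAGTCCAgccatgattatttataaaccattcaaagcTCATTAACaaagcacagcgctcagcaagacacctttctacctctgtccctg
Slc6a13 (chr6:121300490-121300789, plus strand): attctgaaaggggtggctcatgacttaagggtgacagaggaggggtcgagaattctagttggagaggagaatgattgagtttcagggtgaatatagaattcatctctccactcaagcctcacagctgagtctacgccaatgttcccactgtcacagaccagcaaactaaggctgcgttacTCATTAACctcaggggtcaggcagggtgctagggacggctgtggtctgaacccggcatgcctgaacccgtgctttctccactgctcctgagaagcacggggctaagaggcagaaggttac
Slc38a4 (chr15:97031164-97031463, minus strand): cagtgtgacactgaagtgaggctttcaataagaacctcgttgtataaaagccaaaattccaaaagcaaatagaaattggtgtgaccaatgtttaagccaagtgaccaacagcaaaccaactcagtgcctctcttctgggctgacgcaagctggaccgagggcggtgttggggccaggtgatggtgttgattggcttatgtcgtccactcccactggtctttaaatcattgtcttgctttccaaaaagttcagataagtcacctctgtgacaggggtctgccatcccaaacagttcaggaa
Slc1a2 (chr2:102706188-102706487, plus strand): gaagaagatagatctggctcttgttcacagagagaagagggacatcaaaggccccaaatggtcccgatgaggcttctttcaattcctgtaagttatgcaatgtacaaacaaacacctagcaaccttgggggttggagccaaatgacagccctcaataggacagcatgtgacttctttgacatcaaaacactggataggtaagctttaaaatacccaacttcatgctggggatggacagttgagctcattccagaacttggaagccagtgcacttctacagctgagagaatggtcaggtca
Those of Slc6a12 and Slc7a8 were overlapped by a peak in the wild-type library alone.
Slc6a12 (chr6:121343006-121343305, plus strand): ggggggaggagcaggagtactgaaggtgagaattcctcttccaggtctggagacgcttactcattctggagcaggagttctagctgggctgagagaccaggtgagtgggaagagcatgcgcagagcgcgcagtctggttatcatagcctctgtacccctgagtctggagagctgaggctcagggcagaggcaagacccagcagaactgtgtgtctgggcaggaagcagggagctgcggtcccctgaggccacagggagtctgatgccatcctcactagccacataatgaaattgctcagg
Slc7a8 (chr14:54781837-54782136, minus strand): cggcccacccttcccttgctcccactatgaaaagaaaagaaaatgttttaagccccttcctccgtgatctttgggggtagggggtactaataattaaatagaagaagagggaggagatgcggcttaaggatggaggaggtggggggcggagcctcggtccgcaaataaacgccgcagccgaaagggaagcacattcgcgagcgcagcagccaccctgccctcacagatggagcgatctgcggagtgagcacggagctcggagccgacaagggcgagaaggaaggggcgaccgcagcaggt
That of Slc7a11, the cystine carrier, was overlapped by a peak in both libraries.
Slc7a11 (chr3:50443564-50443863, minus strand): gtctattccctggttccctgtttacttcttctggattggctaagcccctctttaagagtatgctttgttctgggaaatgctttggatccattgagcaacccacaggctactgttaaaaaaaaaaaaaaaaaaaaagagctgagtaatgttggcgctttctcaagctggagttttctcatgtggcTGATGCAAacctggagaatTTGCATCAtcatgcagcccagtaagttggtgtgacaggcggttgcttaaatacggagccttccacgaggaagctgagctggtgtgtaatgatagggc

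Letters of the liver factors HNF4A or HNF1 stood in windows of Slc3a1 and Slc6a13, each overlapped by a knockout peak alone, and of Slc6a16, overlapped in both libraries. In the Slc3a1 window the AP-1 match began at position -140, the HNF4A match at -39 and the HNF1 match, on the other strand, at -1, with the start site as position 0. The Slc6a13 window held an HNF1 match at -70, on the other strand. The Slc7a11 window held a pair of ATF4 matches facing each other, at -66 and -47. The table of windows covered 43 of the 61 symbols with 64 windows. HNF1 was matched in 3 of the 64 (4.69%, against 2.54% of all 32851 windows), HNF4A in 1 (1.56%, against 0.475%) and ATF4 in 5 (7.81%, against 3.97%), with the ATF4 matches in Slc1a4, Slc6a21, Slc7a7 and Slc7a11. AP-1 was matched in 9 windows (14.1%, against 7.81%), NRF2 in 11 (17.2%, against 12.4%) and ETS in 2 (3.13%, against 4.07%). C/EBP had 0 matches, against 0.183% of all windows. A match describes letters in a window and is not a binding site, and several members have overlapping windows that repeat the same bases.

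Together the members had 412 distinct peaks in the knockout library (350.3 kb, mean width 850 bp) and 264 in the wild-type library (227.0 kb, 860 bp), a ratio of 1.56. Over all genes the ratio was 1.47, so the transporters as a group followed the difference between the peak lists. Of the 57 members, 42 had more knockout than wild-type peaks (73.7%, against 60.3% of all genes with a peak), 5 had equal numbers and 10 had fewer (17.5%, against 16.2%). Peaks of the 2 libraries that had 1 bp or more in common count as shared. Shared peaks were 48.5% of the knockout peaks and 75.4% of the wild-type peaks of members, close to the 49.5% of knockout and 72.5% of wild-type peaks over all genes.

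The families differed in how far the knockout list exceeded the wild-type list, beside a ratio of 1.47 over all genes. Slc3 had 17 knockout and 8 wild-type peaks (13.6 and 6.71 kb), Slc38 121 knockout and 69 wild-type peaks (102.3 and 58.4 kb), and Slc6 85 knockout and 50 wild-type peaks (73.0 and 43.9 kb). Single members weigh on these numbers. In Slc3 the excess lay in Slc3a1 (12 knockout and 2 wild-type peaks), while Slc3a2 had 5 and 6. In Slc38, Slc38a4 alone had 26 knockout and 3 wild-type peaks. The ratio was smaller in Slc7, with 89 knockout and 68 wild-type peaks (75.7 and 57.8 kb), and in Slc1, with 52 knockout and 38 wild-type peaks (44.7 and 33.2 kb). Slc36 had 24 knockout and 15 wild-type peaks (20.8 and 13.0 kb) and Slc43 24 knockout and 16 wild-type peaks (20.1 and 14.0 kb). Mean widths ran from 802 to 867 bp in the knockout library and from 839 to 879 bp in the wild-type library, so the ratios come from numbers of peaks and not from their widths. Of the wild-type peaks 55.3% were shared in Slc1, the lowest share, and 93.8% in Slc43, the highest. Slc1 thus had the largest share of wild-type peaks without a knockout counterpart.

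**Figure D1:**
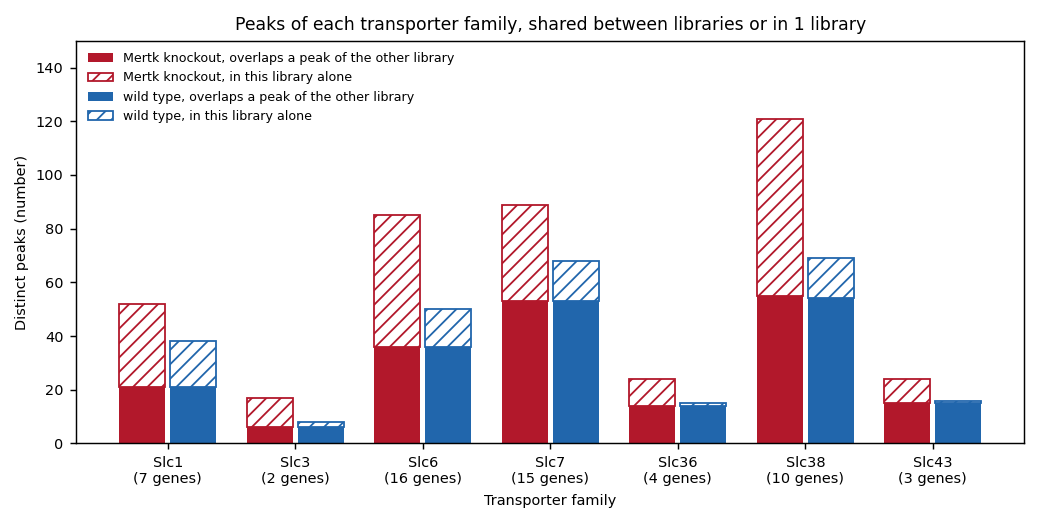
Distinct ATAC peaks assigned to each transporter family (number), with the knockout bar left of the wild-type bar; filled parts overlap a peak of the other library and hatched parts do not. Slc38 reaches 121 knockout and 69 wild-type peaks, and the hatched part is larger in the knockout bar of every family.

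Single genes were compared by accessible length, the summed length of their assigned peaks. The measure is the log2 ratio of the knockout over the wild-type length, with 1 kb added to each and the median over all genes (0.39) subtracted. It was taken where the average of the 2 libraries reached 2 kb, as it did for 45 members. A gene at or beyond 1 was counted as higher and one at or below -1 as lower, which measures size and tests nothing. By it 6 members were higher (13.3%, against 10.3% of all genes measured), 1 was lower (2.22%, against 4.08%) and 38 lay between. The median member was at -0.02, beside 0 for all genes, with 24 members below 0 and 21 above. The larger differences sat in a few members. The 12 members under the minimum had at most 3 peaks in the knockout library and 2 in the wild-type library each.

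The 6 higher members were Slc38a4, Slc7a15, Slc38a3, Slc6a13, Slc3a1 and Slc6a9. Together they had 76 assigned peaks in the knockout library, of which 66 were in that library alone, and 11 in the wild-type library, of which 1 was. The other 51 members had 341 knockout peaks, of which 148 were in that library alone, and 256 wild-type peaks, of which 64 were. Because the 6 were selected by their accessible length in the same peaks, this contrast follows from the size rule and is no separate result. Of the 6, Slc38a3, Slc7a15, Slc6a13 and Slc3a1 had under 2 kb in the wild-type library and so passed the minimum through the knockout library.

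**Figure D2:**
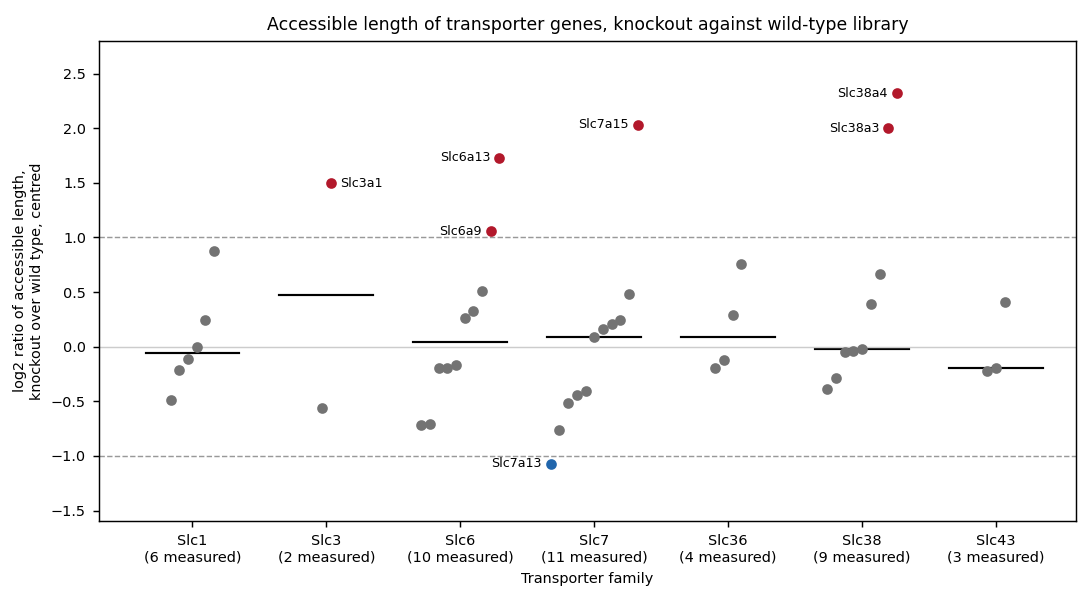
Centred log2 ratio of accessible length, knockout over wild type, for the 45 measured members by family; points are genes, black bars family medians and dashed lines the size rule at 1 and -1. The 6 members above the upper line belong to Slc3, Slc6, Slc7 and Slc38, Slc7a13 lies below the lower line at -1.07, and the place of Slc38a3 is set by the added 1 kb because it had no wild-type peak.

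**Figure D3:**
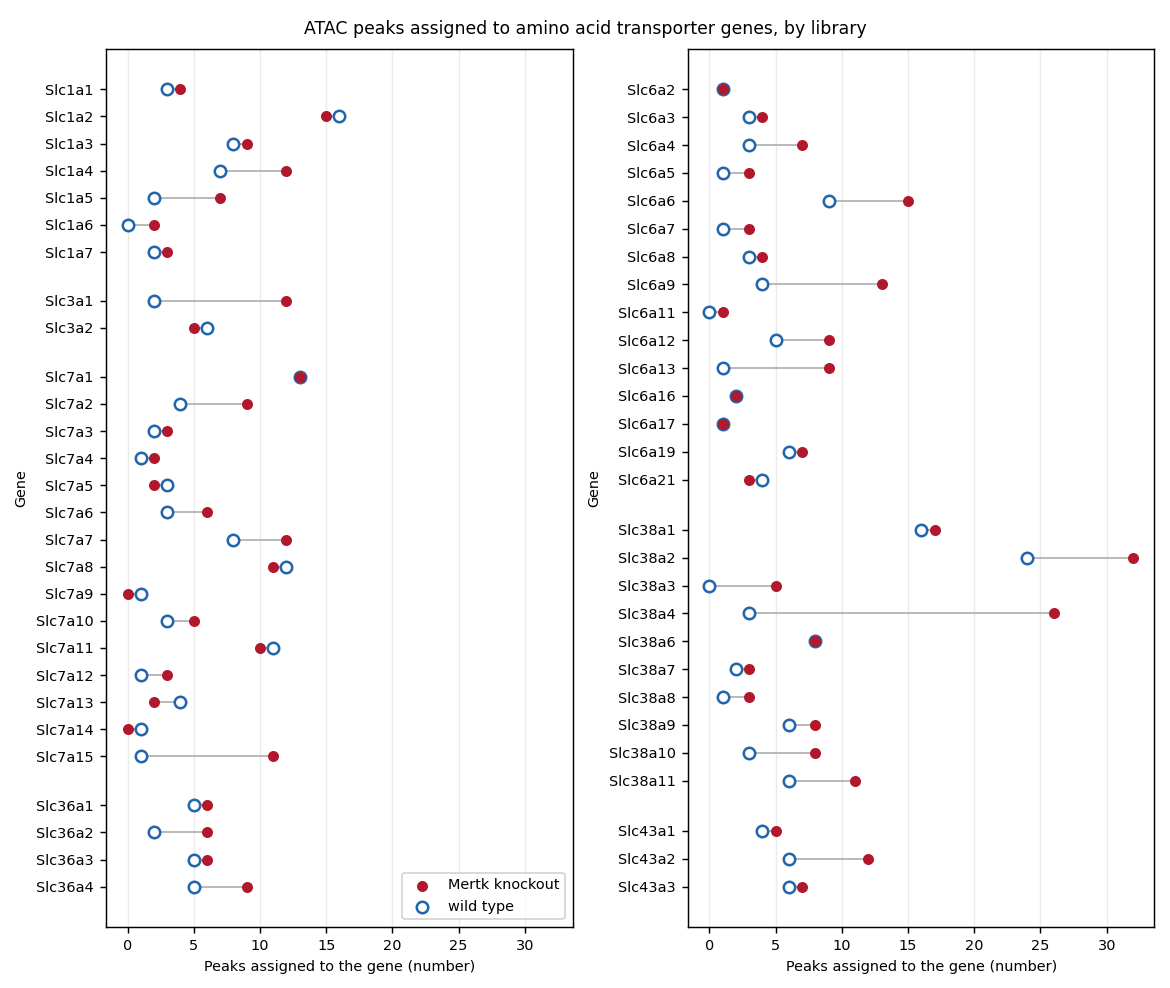
Number of assigned ATAC peaks for member genes in the knockout library (filled) and the wild-type library (open), grouped by family. The widest gap is that of Slc38a4, with 26 knockout and 3 wild-type peaks, while its neighbour Slc38a2 has the most peaks in both libraries, 32 knockout and 24 wild-type.

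The plasma membrane carriers of glutamine and small neutral amino acids, Slc38a1 to Slc38a4, showed both the largest difference and near equality. Slc38a4, a carrier of alanine and other small neutral amino acids known from hepatocytes and imprinted in the mouse, had 26 peaks (22.4 kb) in the knockout library and 3 (2.56 kb) in the wild-type library, a centred ratio of 2.32. All 3 wild-type peaks were shared. Inside the gene (chr15:96994816-97055956) there were 11 knockout peaks and 0 wild-type peaks. Its 3 promoter peaks, at chr15:97019171-97020043, chr15:97030903-97031725 and chr15:97031911-97032638, were in the knockout library alone, and the middle one covers the window printed above. All 3 lay inside the gene, and the window at its outer start (chr15:97055907-97056206) was overlapped by a peak in neither library. Slc38a3, the sodium-coupled liver carrier of glutamine and histidine, had 5 peaks (4.26 kb) in the knockout library and 0 in the wild-type library. No other member had 3 or more peaks in a single library and none in its counterpart, and its promoter peak lay at chr9:107666994-107667835. It passed the size rule, but with 0 in the wild-type library its ratio rests on the added 1 kb.

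Slc38a1 and Slc38a2, which most cell types use, were close to the median gene. Slc38a2, the carrier that amino acid shortage induces, had 32 peaks (27.1 kb) in the knockout library and 24 (20.7 kb) in the wild-type library, a ratio of -0.02. Slc38a1 had 17 peaks (14.2 kb) in the knockout library and 16 (13.1 kb) in the wild-type library, with 14 shared in each, and a ratio of -0.28. Both had promoter peaks in both libraries.

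Slc38a1, Slc38a2 and Slc38a4 lie near each other on chromosome 15, so the same stretch holds both patterns. The body of Slc38a1 held 12 knockout and 11 wild-type peaks, the stretch between Slc38a1 and Slc38a2 held 8 knockout and 5 wild-type peaks, and the 147.5 kb beside Slc38a2 in the gap towards Slc38a4 held 25 knockout and 22 wild-type peaks. The other side of that gap, of equal length, held 10 knockout peaks and 1 wild-type peak. The 50 kb before the start of Slc38a4 held 7 knockout and 2 wild-type peaks. The body of Slc38a2 held 2 peaks in each library, each of the other segments held more knockout than wild-type peaks, and the side of the gap next to Slc38a4 and the body of Slc38a4 had at most 1 wild-type peak each.

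**Figure D4:**
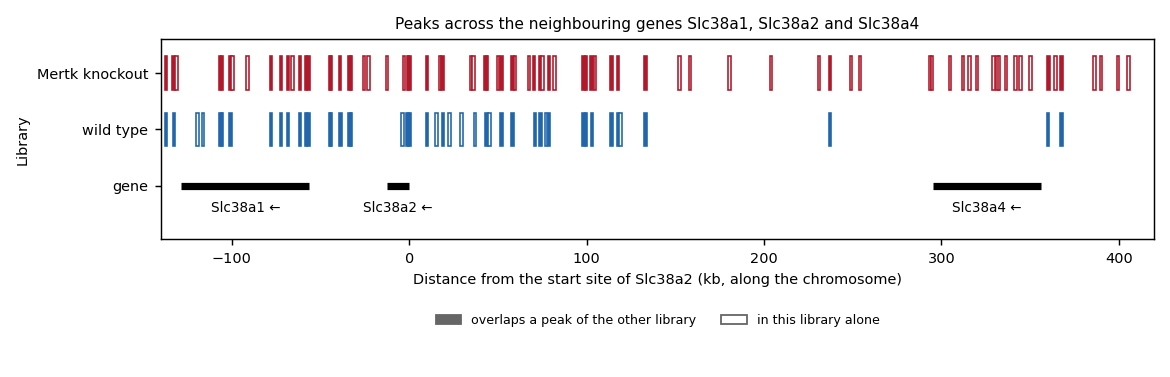
Peaks of the knockout library (upper row) and the wild-type library (lower row) by distance from the start of Slc38a2 in kb along the chromosome; filled peaks overlap a peak of the other library and black bars are genes. Both libraries have peaks around Slc38a1 and Slc38a2, many of them shared, while the body of Slc38a4 has 11 knockout peaks and 0 wild-type peaks.

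The other Slc38 members did not pass the size rule. Slc38a9, the lysosomal arginine sensor that signals to mTORC1, had 8 knockout and 6 wild-type peaks, all 6 of them shared, and a ratio of -0.04. Slc38a7, also placed at the lysosome in human cells, had 3 knockout and 2 wild-type peaks (-0.05). Slc38a10 had 8 knockout and 3 wild-type peaks (0.67) and Slc38a6 had 8 in each (-0.38). Of the Slc38a10 peaks, 6 knockout and all 3 wild-type ones were also assigned to another gene. Slc38a11 had 11 knockout and 6 wild-type peaks (0.39), and its promoter peak, at chr2:65363615-65364481, was in the knockout library alone.

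The heavy subunits went apart from each other. Slc3a1, the partner of the cystine and dibasic amino acid carrier Slc7a9, had 12 peaks (9.37 kb) in the knockout library and 2 (1.80 kb) in the wild-type library, a ratio of 1.50. The body of Slc3a1 (chr17:85028347-85064241) held 9 knockout peaks and 0 wild-type peaks. Its promoter peak, at chr17:85028104-85028841, was in the knockout library alone and spans the HNF4A, HNF1 and AP-1 matches. Both wild-type peaks lay upstream, were shared and were also assigned to the neighbour Ppm1b. Slc3a2, the heavy subunit of most other light subunits, had 5 peaks (4.27 kb) in the knockout library and 6 (4.92 kb) in the wild-type library, a ratio of -0.56. Its main promoter peak was shared. Each library also had a second promoter peak that the other lacked, at chr19:8714847-8715614 in the knockout library and at chr19:8713321-8714034 in the wild-type library.

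Of the light subunits that bind Slc3a2, Slc7a5, Slc7a11 and Slc7a8 had 1 peak fewer in the knockout library than in the wild-type library. Slc7a5, the carrier of leucine and other large neutral amino acids, had 2 peaks (1.73 kb) in the knockout library and 3 (2.52 kb) in the wild-type library, a ratio of -0.76. Slc7a11, which exports glutamate for the cystine that goes into glutathione, had 10 knockout peaks (8.81 kb) and 11 wild-type peaks (9.71 kb), with 8 shared in each, and a ratio of -0.52. Slc7a8, a carrier of neutral amino acids, had 11 knockout and 12 wild-type peaks, with 10 shared in each (-0.44). Slc7a8 was the only member to which the annotation gave promoter peaks from the wild-type list and none from the knockout list, namely the peak at chr14:54781493-54782137. That peak overlapped the end of a knockout peak at chr14:54781071-54781553, which the authors annotate as distal, 377 bp from the start. The knockout peak did not reach the Slc7a8 window printed above, which was overlapped in the wild-type library alone.

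The exchangers of cationic for neutral amino acids, Slc7a7 and Slc7a6, did not pass the size rule. Slc7a7, the exchanger of macrophages and of kidney and gut, had 12 peaks (10.1 kb) in the knockout library and 8 (6.29 kb) in the wild-type library, and all 8 were shared. Slc7a6 had 6 knockout and 3 wild-type peaks, with all 3 shared. Their ratios of 0.21 and 0.24 were between the limits. Slc7a10, a carrier of small neutral amino acids, had 5 knockout and 3 wild-type peaks (0.16) and a promoter peak, at chr7:35185018-35185892, in the knockout library alone.

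Among light subunits, Slc7a15 and Slc7a13 passed the size rule, in opposite directions. Slc7a15 had 11 peaks (9.11 kb) in the knockout library and 1 (0.881 kb) in the wild-type library, a ratio of 2.03. Its body held 10 knockout peaks and 1 wild-type peak, and its promoter peak, at chr12:8539190-8540049, was in the knockout library alone. Of these, 5 knockout peaks and the wild-type peak were also assigned to the transcript 5033421B08Rik. The promoter peak of Slc7a15 lay at an inner start, and the window at its outer start (chr12:8599017-8599316) was overlapped by a peak in neither library. Slc7a13, which pairs with Slc3a1 in the kidney, had 2 peaks (1.83 kb) in the knockout library and 4 (3.54 kb) in the wild-type library, a ratio of -1.07. It had no promoter peak, 1 peak in each library was shared, and the call rests on a difference of 2 peaks. It was lost with a 2 kb pseudocount (-0.85), with centring within 20 bins of length (-0.90) and without centring (-0.68). Slc7a9 itself had 0 knockout peaks and 1 wild-type peak and was under the minimum.

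The cationic amino acid carriers were between the limits. Slc7a1, the widespread arginine carrier, had 13 peaks in each library (10.9 kb in the knockout, 11.0 kb in the wild type), with 12 shared in each, and a ratio of -0.41. Slc7a2, the arginine carrier of hepatocytes and activated macrophages, had 9 peaks (7.26 kb) in the knockout library and 4 (3.50 kb) in the wild-type library, a ratio of 0.48. Only 2 peaks of Slc7a2 in each library were shared, against 12 for Slc7a1.

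The Slc6 carriers of GABA, betaine, taurine and creatine included 1 that passed the rule. Slc6a13, a GABA and taurine carrier known from mouse hepatocytes, had 9 peaks (7.21 kb) in the knockout library and 1 (0.889 kb) in the wild-type library, a ratio of 1.73. Its promoter peak, at chr6:121299638-121300269, was in the knockout library alone, and so was the next peak, at chr6:121300382-121300930, which covers the window with the HNF1 match. The only wild-type peak lay at the far end of the gene, was shared and was also assigned to Slc6a12. Slc6a6, the widespread taurine carrier, had 15 peaks (12.8 kb) in the knockout library and 9 (7.74 kb) in the wild-type library, with a shared promoter peak and a ratio of 0.26. Slc6a8, the creatine carrier, had 4 knockout and 3 wild-type peaks, with 3 shared in each (-0.20).

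Slc6a12, the betaine carrier just downstream of Slc6a13, had different promoter peaks in the 2 libraries. It had 9 peaks (7.87 kb) in the knockout library and 5 (4.38 kb) in the wild-type library, a ratio of 0.33. The knockout promoter peak lay at chr6:121346202-121347097. The wild-type promoter peaks lay at chr6:121341414-121342290 and at chr6:121342922-121343812, nearer the outer start of the gene (chr6:121342574-121365773), and the second covers the Slc6a12 window printed above. None of the 3 overlapped a peak of the other library. Slc6a13 and Slc6a12 shared the assignment of 2 knockout peaks and 1 wild-type peak, so their values are not independent.

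Of the 8 carriers of glycine, proline, neutral amino acids and monoamines in Slc6, 4 reached the 2 kb minimum and 1, Slc6a9, passed the size rule. Slc6a9, the glycine carrier of glia and red cell precursors, had 13 peaks (11.1 kb) in the knockout library and 4 (3.44 kb) in the wild-type library, a ratio of 1.05, just inside the limit. Its promoter peak was shared, and 9 of its knockout and 3 of its wild-type peaks were also assigned to the overlapping gene Gm17114. Its ratio was under the limit over peaks assigned to 1 gene alone (0.92), with a 2 kb pseudocount (0.95) and with centring within 20 bins of length (0.996). The 2 members just outside the limit on that side were Slc1a5 at 0.87 and Slc36a2 at 0.75. Slc6a4, the serotonin carrier, had 7 knockout and 3 wild-type peaks (0.51) and a promoter peak, at chr11:76997098-76997942, in the knockout library alone. Slc6a3, the dopamine carrier, had 4 knockout and 3 wild-type peaks (-0.17), with the 3 distal peaks shared and a promoter peak, at chr13:73536275-73537083, in the knockout library alone. Slc6a19, a neutral amino acid carrier of gut and kidney, had 7 knockout and 6 wild-type peaks (-0.20).

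**Figure D5:**
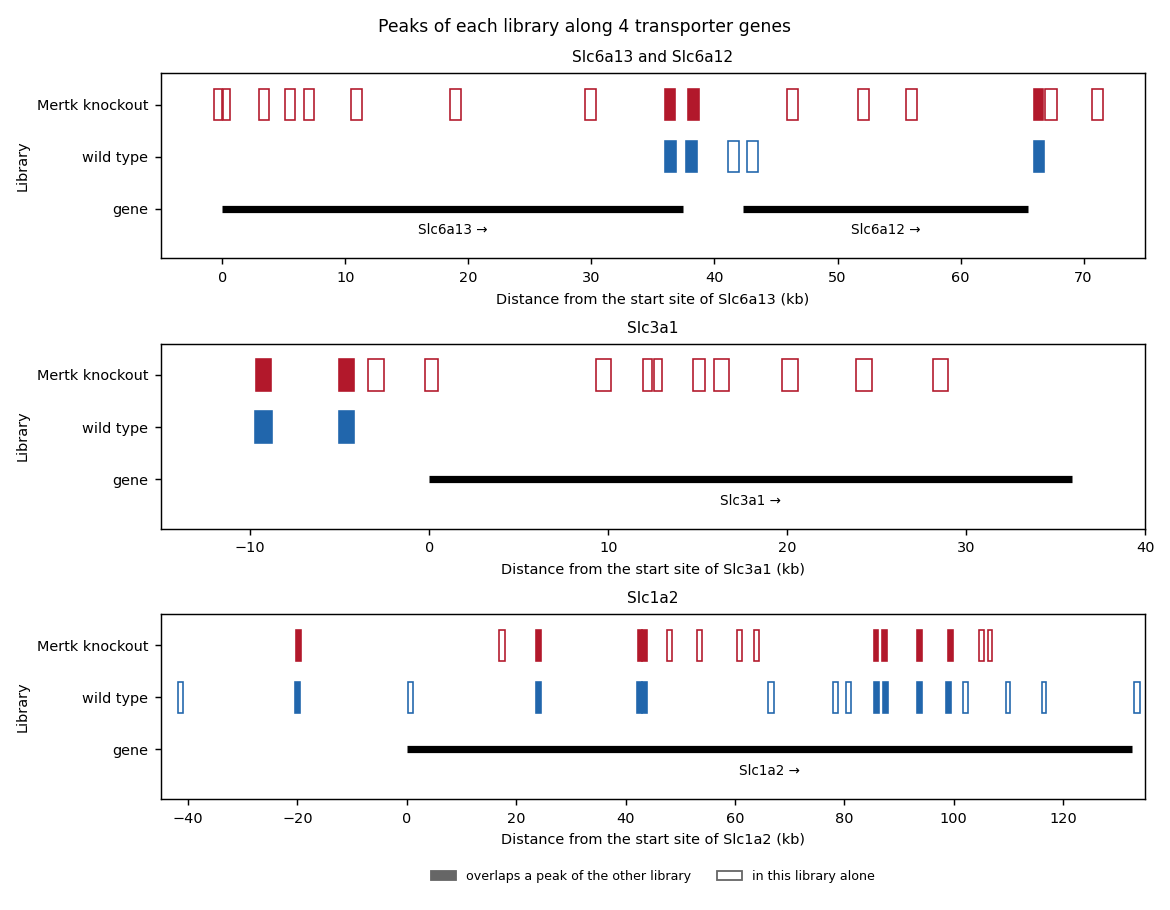
Peaks of the knockout library (upper rows) and the wild-type library (lower rows) by distance from the start of Slc6a13, Slc3a1 and Slc1a2 in kb; filled peaks overlap a peak of the other library and black bars are genes. The body of Slc3a1 has 9 knockout peaks and 0 wild-type peaks, that of Slc6a13 has 8 knockout peaks and 1 wild-type peak, and that of Slc1a2 has 14 of each.

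The glutamate carriers of the Slc1 family had nearly equal numbers in the 2 libraries, but not the same peaks. Slc1a2, the glutamate carrier of astrocytes and of hepatocytes around the central vein, had 15 peaks (12.9 kb) in the knockout library and 16 (13.9 kb) in the wild-type library, a ratio of -0.49. Of these, 7 knockout and 11 wild-type peaks were also assigned to another gene. The ratio was 0.22 over peaks assigned to 1 gene alone. It was -0.03 over peaks within 50 kb of the start, a setting that also left out distal peaks with a given distance of 0. In each library 8 of its peaks were shared, and its body held 14 peaks per library with 7 of them shared. Its promoter peaks lay at different starts, at chr2:102705800-102706706 in the knockout library and at chr2:102658535-102659325 in the wild-type library. The wild-type one was at the outer start of the gene (chr2:102658239-102790784) and the knockout one, which covers the Slc1a2 window printed above, at an inner start. Of the 30 members with promoter peaks in both libraries, Slc1a2 and Slc6a12 were the 2 whose promoter peaks did not overlap, against 0.441% of all such genes.

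The remaining Slc1 members were between the limits or under the minimum. Slc1a3, a glutamate carrier of astrocytes, had 9 peaks (7.88 kb) in the knockout library and 8 (6.86 kb) in the wild-type library (-0.22). Slc1a1, a carrier of glutamate and cysteine, had 4 knockout and 3 wild-type peaks (-0.11), with a promoter peak, at chr19:28834650-28835468, in the knockout library alone. Slc1a6, a glutamate carrier of the cerebellum, had 2 knockout peaks, 1 of them at its promoter (chr10:78779840-78780807), and 0 wild-type peaks. The exchangers of small neutral amino acids had more peaks in the knockout library. Slc1a5, the glutamine exchanger of dividing cells, had 7 peaks (5.46 kb) in the knockout library and 2 (1.69 kb) in the wild-type library (0.87), and Slc1a4 had 12 knockout peaks (10.5 kb) and 7 wild-type peaks (6.39 kb), a ratio of 0.24. Both wild-type peaks of Slc1a5, at its promoter and inside the gene, were shared.

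The proton-coupled and Slc43 carriers had the highest shares of wild-type peaks found again in the knockout library, 93.3% in Slc36 and 93.8% in Slc43. Slc36a1, the lysosomal carrier of small amino acids, had 6 peaks in the knockout library and 5 in the wild-type library (-0.12), and Slc36a4 had 9 knockout and 5 wild-type peaks (0.29), with all 5 of the wild type shared. Slc36a2 and Slc36a3 shared the assignment of 3 knockout and 2 wild-type peaks. Slc43a1, a carrier of branched-chain amino acids, had 5 knockout and 4 wild-type peaks (-0.23). Slc43a2, a related carrier, had 12 knockout and 6 wild-type peaks (0.41), all of them also assigned to another gene, and Slc43a3, which carries purine bases, had 7 knockout and 6 wild-type peaks (-0.19). All 6 wild-type peaks of Slc43a2 and all 6 of Slc43a3 were shared.

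Promoter peaks in the knockout library alone were a larger share among the members than among all genes. Of the 42 members with a promoter peak in either library, 30 had one in both, 11 in the knockout library alone (26.2%, against 15.4% of all such genes) and 1 in the wild-type library alone (2.38%, against 3.17%). The 11 were Slc1a1, Slc1a6, Slc3a1, Slc6a3, Slc6a4, Slc6a13, Slc7a10, Slc7a15, Slc38a3, Slc38a4 and Slc38a11. Of these, 5 were also higher by the size rule. None of the promoter peaks of the 11 overlapped any wild-type peak, so none of these regions was listed as another kind of peak in the wild-type library. Over all genes, 116 of 2709 such cases (4.28%) had an overlap. As a share of peaks, 60.8% of the members' 51 knockout promoter peaks and 88.9% of their 36 wild-type promoter peaks were shared, against 78.9% of knockout and 93.5% of wild-type promoter peaks over all genes. No test of this difference was possible.

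Most peaks of members were distal, which in the authors' annotation means assigned to a gene within 200 kb but outside 1000 bp before to 100 bp after its start. The knockout library had 361 distal peaks, 46.8% of them shared, and the wild-type library had 228, 73.2% of them shared, against 43.7% of knockout and 67.1% of wild-type distal peaks over all genes. Of the 192 distal peaks in the knockout library alone, 58.3% lay inside the member gene, against 52.7% of the 169 shared ones. Of the 61 in the wild-type library alone, 55.7% did. For those with a distance above 0, the median distance to the start was 15.9 kb for the knockout-alone peaks, 19.8 kb for the shared knockout peaks and 22.8 kb for the wild-type-alone peaks. Of the 54 members with a wild-type peak, 23 had all wild-type peaks shared. Of the 55 with a knockout peak, 3 had all knockout peaks shared. Neither count was made over all genes, so whether they set the members apart was not tested. Over all genes 72.5% of wild-type peaks and 49.5% of knockout peaks were shared.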

How the data were processed

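Nuclei of bile-duct-ligated livers were measured by 10x Multiome in 1 ATAC and 1 RNA library per genotype. Per the file headers, the authors' pipeline was cellranger-arc 2.0.2 with mm10, and each deposited peak list comes from its own run. The deposited lists hold positions only, and the deposited annotation gives each peak a type, genes and a signed distance to them in bp, entered as a score without fixed range. For the peak caller, settings are not given in the sources used. The deposited per-barcode counts are raw whole numbers, used here for depth alone. No matrix of genes by nuclei was used, so expression was not analysed here.

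Peaks off chromosomes 1 to 19, X and Y were left out, 44 knockout and 43 wild-type peaks. Accessible length, its 1 kb pseudocount, the 2 kb minimum and the size rule are as described above. Peaks were called per library, so sums move with how much was called. A peak assigned to several genes counts for each gene, and once in a family. Gene bodies, strands and windows are RefSeq's (GRCm38.p6). For 14 members with no window the strand came from the authors' signed distances, which matched RefSeq in 32 of 32 members that had both. Genes named with values are those past the size rule, those with a promoter peak in 1 library, those with at least 3 peaks against 0, those with a known role in liver or immune cells, and the member with the most peaks of each family. Slc38a6, Slc38a7, Slc38a10, Slc6a19 and Slc36a2 were named outside this rule, after their values were seen. Of the members in the totals, 1 is not reported here. The members, roles and lists were chosen with earlier results of these data known, and so support nothing by themselves. Tools were pandas 2.3.3, numpy 2.4.6, matplotlib 3.10.9, scipy 1.17.1 and Python 3.11.15. Overlaps were checked against bedtools 2.31.1, and the calculation was tested on simulated data. The alternatives changed the pseudocount, minimum, centring, peak type, peak width, distance, gene assignment, overlap and promoter definition. The distance alternative, within 50 kb of the start, also left out distal peaks with a given distance of 0.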

Additional observations from a re-analysis of the deposited data

How the results depend on the processing

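No paired analysis was possible because each genotype has 1 library, and no library could be left out for the same reason. The number of higher members was 6, and 5 to 9 under the alternatives, except 1 (Slc38a4) with promoter peaks alone, where Slc6a9 turned to -0.10. Under that setting Slc38a3 (0.87), Slc7a15 (0.89), Slc3a1 (0.79) and Slc6a13 (0.70) each had 1 knockout peak and 0 wild-type peaks. With 1 kb added, 1 peak of under 1 kb against 0 cannot reach the rule, so the setting cannot decide on these genes. The number of lower members was 1. It became 0 with a 2 kb pseudocount, a 4 kb minimum, no centring, centring within 20 bins of length, or promoter peaks alone. It was 2 of 45 within 50 kb of the start, against 4.41% of all genes, and 3 of 57 with no minimum, against 5.24%. Without centring 9 members were higher and 0 lower, so all members past the rule were higher in place of 85.7%, and over all genes 93.6% in place of 71.6%. Of 88 recomputed ratios of the 7 members past the rule, 77 kept their call, 10 kept only their direction and 1 reversed. Slc6a9 fell under the limit with a 2 kb pseudocount (0.95), with centring within 20 bins (0.996) and with peaks assigned to 1 gene (0.92). Slc7a13 came to -0.85 with the 2 kb pseudocount, -0.90 with centring within 20 bins and -0.68 without centring. Members whose promoter peak was in the wild type alone numbered 1, but 0 if any peak within 1 kb of the start counted. With RefSeq windows in place of the annotation, an alternative chosen after seeing the data, it was 3, and the number with one in both libraries was 17 in place of 30, over fewer genes. The cause of these changes was not tested, beyond the smaller number of genes with a window. Shared percentages of members' peaks stayed between 47.6 and 50.7 in the knockout library and between 74.2 and 77.3 in the wild-type library when the overlap rule changed. The knockout library had 2.06 times the fragments of the wild-type library, and 46.0% of them lay in its peaks, against 33.7% in the wild-type library. A peak missing from a list was not called there, which does not show that the DNA was closed, and the part of depth was not tested.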

Other observations

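Lists of genes that work beside these carriers were also examined. Of the genes of taurine and betaine, 3 of 5 passed the size rule as higher and 0 as lower. Cdo1, the first enzyme of taurine synthesis from cysteine, had 6 peaks (5.22 kb) in the knockout library and 1 (0.839 kb) in the wild-type library, a ratio of 1.37. Bhmt, which uses betaine to make methionine, had 6 knockout and 0 wild-type peaks, and Baat, which joins bile acids to taurine or glycine, had 9 knockout and 0 wild-type peaks. Of the genes of amino acid sensing and stress, 3 of 12 measured were higher and 0 lower. They were Atf4, the transcription factor of amino acid shortage, with 5 knockout peaks and 1 wild-type peak (1.03), and the cysteine synthesis enzymes Cth, with 5 knockout peaks and 1 wild-type peak (1.07), and Cbs, with 6 knockout peaks and 1 wild-type peak (1.29).

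Enzymes of glutamate, glutamine and glutathione had 61 knockout and 38 wild-type peaks, and 1 of 10 measured was higher: Gclm, a subunit of the first enzyme of glutathione synthesis, with 12 knockout and 3 wild-type peaks (1.14). Of the mTORC1 genes at the lysosome, 0 of 7 measured passed the rule in either direction, with 65 knockout and 56 wild-type peaks in all. Among 6 measured carriers of amino acids and peptides outside the 7 families, Slc15a1, with 5 knockout and 0 wild-type peaks, and Slc17a8, with 9 knockout and 2 wild-type peaks (1.24), were higher. Slc15a4, a lysosomal histidine and peptide carrier of immune cells, was lower, with 2 knockout and 6 wild-type peaks (-1.56). Of the partner proteins, 0 of 1 measured passed the rule. Over all genes measured 10.3% were higher and 4.08% lower. Stellate cell and fibroblast markers had 60 knockout and 8 wild-type peaks, and endothelial markers 100 knockout and 55 wild-type peaks. Cholangiocyte markers had 32 knockout and 10 wild-type peaks, and neutrophil markers 23 knockout and 25 wild-type peaks. T and NK cell markers had 11 knockout and 21 wild-type peaks, and B cell markers 7 knockout and 9 wild-type peaks. The part of these cell types in the results was not tested.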
